A study of Homo sapiens with 6 samples.

Results

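The genes described here are 32 genes of antioxidant defence, chosen by name as the transcription factor NRF2 (*NFE2L2*) and its inhibitor *KEAP1* with their targets and the peroxiredoxin, thioredoxin, glutathione and superoxide enzymes. All 32 were among the 19330 genes of the deposited counts. They were followed in K562, an established human leukemia cell line derived from chronic myelogenous disease, that had received Cas9 and an sgRNA by lentivirus (pLentiCRISPRv2). In 3 libraries (sgCtrl) the sgRNAs were controls against the olfactory receptor genes OR11A1 and, as the labels spell it, OR2M49, and in 3 libraries (sgN6AMT1) they were against *N6AMT1*, the gene of an enzyme that methylates a glutamine of the translation release factor eRF1. Every library came from its own transduction, was selected with puromycin for 48 h and was taken on day 10, so that each is a transduced population and not a clone. Which sgRNA a library carried is not given in the sources used here.

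NRF2 is kept low in unstressed cells because KEAP1, joined to the CUL3 ubiquitin ligase, marks it for degradation. Oxidants and electrophiles modify KEAP1, and NRF2 then enters the nucleus, pairs with small MAF proteins and activates genes that carry an antioxidant response element. Its targets make and recycle glutathione and thioredoxin, the carriers of reducing power that peroxiredoxins and glutathione peroxidases spend on peroxides. Superoxide, a by-product of the respiratory chain, is turned into peroxide by SOD2 in the mitochondrial matrix and by SOD1 in the cytosol and the intermembrane space. The enzymes were divided by where their products mainly reside, as mitochondrial (6 genes), cytosolic (13), known both in mitochondria and elsewhere (6), or of the ER or peroxisome (4), beside 3 regulators.

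The libraries held 742470 to 866894 counts in sgCtrl and 959319 to 5526904 in sgN6AMT1, where replicates 2 and 3 of sgN6AMT1 exceeded all others. *N6AMT1* itself received 6, 5 and 9 counts in the control libraries against 0, 18 and 16 in the depleted ones, which is 5.77 to 10.6 against 0 to 4.11 normalized counts (counts per 1e6 after TMM scaling, the level used throughout). Of 17 marker genes of the erythroid line to which K562 belongs, all 17 were tested. Of 9 markers of other cell types, *MS4A1*, *SFTPC* and *INS* were at 0 in the 6 libraries and none exceeded 20.1 normalized counts, with sums of 30.7 to 41.7 in sgCtrl and 35.6 to 48.8 in sgN6AMT1. The erythroid markers were not level between the conditions, since *ALAS2*, the first enzyme of heme synthesis in red cells, had a log2 fold change of 1.84 (edgeR adjusted p = 6.59e-06), and *HBG1*, *HBG2*, *HBE1* and *LYL1* were called higher and *LMO2* lower. The 17 markers summed to 14020 to 20972 normalized counts in sgCtrl and 21336 to 38437 in sgN6AMT1. The largest values were those of *HBG1* (means of 5578 in sgCtrl and 11488 in sgN6AMT1) and *HBG2*, and both overlapped between the conditions. Of the 17, 6 were called, where 9.85% of all genes tested were. Log2 fold changes of the 17 were positive for 10 and negative for 7, with a median of 0.05. The part of these markers in the antioxidant values was not tested. Fewer cells with a transcript and less of it per cell cannot be told apart in such bulk libraries.

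Several antioxidant enzymes were higher in *N6AMT1*-depleted cells, while the transcripts of NRF2 and KEAP1 were not called. Of the 32 genes, 28 had enough counts to be tested. Differentially expressed genes are those with an adjusted p under 0.05 in edgeR's quasi-likelihood test over all 8324 genes tested. Among the 28, 8 were differentially expressed, where the share over all genes tested was 9.85%. They were *TXNRD2*, *GCLC*, *NQO1*, *GSTK1*, *PRDX5*, *PRDX1* and *GSTP1*, which rose, and *CAT*, which fell. In GRCh38 (GENCODE v44) these genes lie with *TXNRD2* at chr22:19875517-19941820 on the minus strand, *GCLC* at chr6:53497341-53616970 on the minus strand, *NQO1* at chr16:69706996-69726668 on the minus strand, *GSTK1* at chr7:143244093-143270854 on the plus strand, *PRDX5* at chr11:64318121-64321811 on the plus strand, *PRDX1* at chr1:45510914-45542732 on the minus strand, *GSTP1* at chr11:67583742-67586656 on the plus strand and *CAT* at chr11:34438934-34472060 on the plus strand. The 7 that rose compare with 5.09% of all genes called higher, and the 1 that fell with 4.76% called lower. The log2 fold changes of the 28 were positive for 21 and negative for 7, with a median of 0.25 against 0.0087 over all genes tested. For 14 of the 28 each sgN6AMT1 library lay above each sgCtrl library, and for 3 each lay below, where 15.1% and 14.1% of all genes tested did so. These counts rest on few libraries: 1 member was called without sgCtrl replicate 1 and 1 without sgCtrl replicate 2, 3 without sgCtrl replicate 3, and 6, 2 and 5 without sgN6AMT1 replicates 1, 2 and 3. The share of all genes called moved as well, to 3.5%, 2.54% and 8.72% without sgCtrl replicates 1, 2 and 3, and to 11.2%, 5.85% and 6.37% without sgN6AMT1 replicates 1, 2 and 3. The median stayed between 0.20 and 0.37 in the same fits, all of which had fewer samples.

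**Figure D1:**
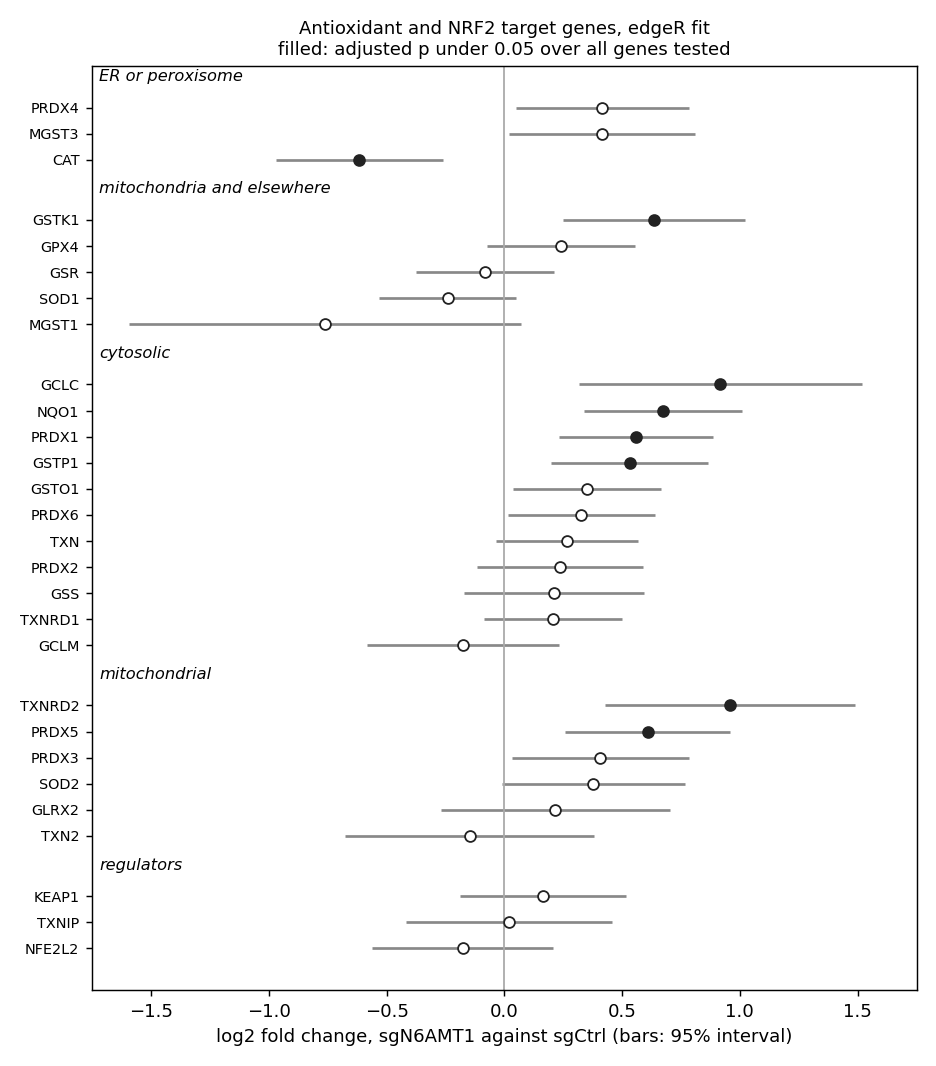
Log2 fold changes of the 28 members tested, sgN6AMT1 against sgCtrl (x axis), by compartment of the product (y axis), with 95% intervals from the edgeR fit. Filled points are the 8 genes with an adjusted p under 0.05. The mitochondrial and cytosolic enzymes lie mostly to the right of 0, *CAT* to the left, and the regulators around 0.

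Fold changes also followed base composition in these libraries. The median log2 fold change over all genes rose from -0.14 in the lowest of 5 equal bins of transcript GC content to 0.18 in the highest bin. That highest bin held 6 of the 28 tested members and 3 of the 7 that rose, where 7.69% of all its genes were called higher. The second lowest bin held 10 members, of which 2 rose, where 2.63% of all its genes were called higher. After each library was corrected for transcript GC content and length, 5 of the 28 members were called (*TXNRD2*, *NQO1*, *PRDX1*, *GCLC* and *CAT*), against 11.2% of all genes tested, and the median of the members was 0.24. *PRDX5*, *GSTK1* and *GSTP1* had adjusted p-values of 0.161, 0.102 and 0.103 in that edgeR fit, with log2 fold changes of 0.40, 0.45 and 0.31. Members not called moved too, in both directions. Smaller in size became *PRDX2* (0.24 to 0.02), *GPX4* (0.24 to 0.01), *GSS* (0.21 to 0.05), *KEAP1* (0.16 to 0.02) and *GSTO1* (0.35 to 0.21). So did *PRDX4* (0.42 to 0.27), *MGST3* (0.41 to 0.33), *GLRX2* (0.22 to 0.17), *NFE2L2* (-0.18 to -0.14) and *PRDX6* (0.33 to 0.31). Larger in size became *SOD2* (0.38 to 0.53), *TXN2* (-0.15 to -0.33), *TXNRD1* (0.21 to 0.27), *SOD1* (-0.24 to -0.30) and *TXN* (0.27 to 0.32). *PRDX3* (0.41 to 0.45), *TXNIP* (0.02 to 0.06) and *GSR* (-0.08 to -0.09) did likewise, *MGST1* stayed at -0.76, and *GCLM* turned from -0.18 to 0.03.

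**Figure D2:**
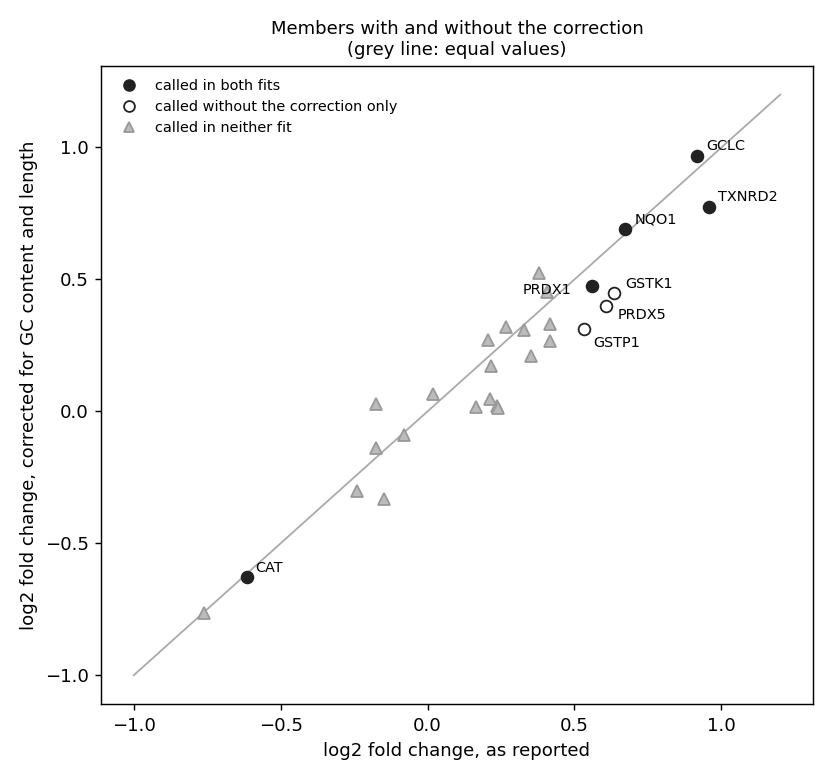
Log2 fold changes of the 28 members as reported (x axis) and after correction of each library for GC content and length (y axis). *TXNRD2*, *GCLC*, *NQO1*, *PRDX1* and *CAT* were called in both fits (filled circles), *PRDX5*, *GSTK1* and *GSTP1* only without the correction (open circles), and the other 20 in neither (triangles).

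The regulators come first. *NFE2L2*, which encodes NRF2, had 84.7, 113 and 90.8 normalized counts in sgCtrl replicates 1 to 3, against 99.1, 81.2 and 79.4 in sgN6AMT1. The conditions overlapped, and the log2 fold change was -0.18 with a 95% interval from -0.56 to 0.21 (edgeR adjusted p = 0.587). *KEAP1*, its inhibitor, had 116, 96.9 and 93.1 in sgCtrl and 109, 110 and 122 in sgN6AMT1, again with overlap, and a log2 fold change of 0.16 with an interval from -0.19 to 0.52 (edgeR adjusted p = 0.58). *TXNIP*, which binds and inhibits thioredoxin, lay between 95.4 and 156 in sgCtrl and between 86.4 and 147 in sgN6AMT1, a log2 fold change of 0.02 (interval from -0.42 to 0.46). NRF2 is governed mainly through its degradation, which these counts do not measure. Exons of *NFE2L2* overlap those of *AGPS* and *HNRNPA3* on the other strand, and *HNRNPA3* had a log2 fold change of -2.02 (edgeR adjusted p = 0.000939), so that its counts are uncertain if the strand was not used.

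The first group of effectors is that of the classical NRF2 targets. *NQO1*, a quinone reductase and the usual reporter of NRF2 activity, had 95.4, 100 and 103 normalized counts in sgCtrl and 157, 147 and 172 in sgN6AMT1. All 3 depleted libraries lay well above the controls, which were within 8 counts of each other. The means were 99.4 ± 3.67 and 159 ± 12.9 (SD, n = 3 per condition), a 1.59-fold difference and a log2 fold change of 0.67 (± 0.16 SE, edgeR adjusted p = 0.0139). The adjusted p was above the threshold without sgCtrl replicate 1 (0.0638) or replicate 2 (0.0761).

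*HMOX1*, heme oxygenase, which is induced by NRF2 once heme has removed its repressor BACH1, was at 0 in the 6 libraries. A count of 0 allows 3 counts, which is 0.548 normalized counts in the deepest library and 4.03 in the shallowest. *SRXN1*, the sulfiredoxin that repairs overoxidized peroxiredoxins, received 6, 11 and 2 counts in the control libraries against 4, 25 and 40 in the depleted ones. At 2.36 to 12.7 and 4.22 to 10.3 normalized counts, its conditions overlapped, and it did not pass the filter on low counts. No change was measured for either gene. How reads that map to several places were assigned is not given, and its part in the 0 of *HMOX1* was not tested.

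Glutathione is made by glutamate-cysteine ligase, whose catalytic subunit is GCLC and whose modifier subunit is GCLM, and then by glutathione synthetase (GSS). *GCLC* had 14.8, 20.8 and 23.6 normalized counts in sgCtrl and 48.5, 32.3 and 36.0 in sgN6AMT1, from 11, 18 and 20 counts and 46, 177 and 140 counts. Each depleted library was above each control, and the log2 fold change was 0.92 (± 0.29 SE, edgeR adjusted p = 0.0493). This call was just under the threshold, and the adjusted p was 0.0609 to 0.176 with any single library left out, 0.0523 with RLE scaling and 0.0954 in DESeq2.

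*GCLM* moved the other way without being called. It had 61.8, 68.1 and 64.8 normalized counts in sgCtrl and 48.5, 60.4 and 60.7 in sgN6AMT1, so that the depleted libraries lay below the controls, with a log2 fold change of -0.18 (95% interval from -0.58 to 0.23, edgeR adjusted p = 0.617). Within each library the counts on *GCLC* were 0.24, 0.31 and 0.36 times those on *GCLM* in sgCtrl, and 1.00, 0.53 and 0.59 times in sgN6AMT1. This ratio differed by 1.19 on the log2 scale without overlap (two-sided exact permutation test, p = 0.1, which 3 libraries against 3 cannot go below, and 0.25 after adjustment over 5 such ratios). The 5 ratios were chosen after the values of their genes were seen, so the p-value and the lack of overlap support no conclusion. *GSS* overlapped between the conditions, with 93.4 to 109 normalized counts in sgCtrl and 98.0 to 144 in sgN6AMT1. Glutathione reductase, *GSR*, which returns oxidized glutathione to its reduced form, was close to level at 278 to 309 and 268 to 290, a log2 fold change of -0.08 (interval from -0.37 to 0.21).

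The genes that use glutathione did not move together. *GSTP1*, the glutathione transferase that detoxifies electrophiles in the cytosol, had 629, 563 and 704 normalized counts in sgCtrl and 789, 863 and 1085 in sgN6AMT1. Its log2 fold change was 0.53 (± 0.16 SE, edgeR adjusted p = 0.0419). The groups did not overlap, but the call was lost without sgCtrl replicate 1 or 2 (adjusted p = 0.116 and 0.221) and without sgN6AMT1 replicate 2 or 3 (0.076 and 0.114).

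*GSTK1*, a transferase of mitochondria and peroxisomes, had 113, 85.4 and 110 normalized counts in sgCtrl and 165, 127 and 187 in sgN6AMT1, a log2 fold change of 0.64 (± 0.18 SE, edgeR adjusted p = 0.0366). Every depleted library exceeded every control, and the adjusted p was between 0.053 and 0.203 without sgCtrl replicate 1, 2 or 3 or sgN6AMT1 replicate 1 or 3, and 0.0582 in DESeq2. *GSTO1*, of the omega class, had 196, 216 and 230 in sgCtrl and 235, 285 and 294 in sgN6AMT1, without overlap and without a call (log2 fold change 0.35, edgeR adjusted p = 0.143).

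*GPX4*, the selenoenzyme that reduces lipid peroxides in membranes, had 347, 310 and 341 normalized counts in sgCtrl and 359, 354 and 462 in sgN6AMT1, a log2 fold change of 0.24 (95% interval from -0.07 to 0.55), or 0.01 after the GC content and length correction (edgeR adjusted p = 0.961). *GPX1*, the most widespread glutathione peroxidase, was at 0 in 5 libraries and at 2 counts in sgN6AMT1 replicate 1. Its exons are shared with another annotated gene on the same strand in GENCODE v44, and how such reads were counted is not given in the sources used here. *GLRX*, cytosolic glutaredoxin, had 0 counts in each sgCtrl library and 2, 19 and 11 in sgN6AMT1. Its levels of 2.11 to 3.47 normalized counts are under the 3.46 to 4.03 that 3 counts give in the controls, or at that limit, so no fold is given. Of the microsomal transferases, *MGST3* had 84.7, 58.8 and 73.1 in sgCtrl and 95.9, 88.7 and 103 in sgN6AMT1 (log2 fold change 0.41, edgeR adjusted p = 0.165), and *MGST1* had 13.0 to 26.9 and 6.68 to 16.2 (-0.76, adjusted p = 0.233).

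The peroxiredoxins reduce peroxides with electrons from thioredoxin, except PRDX6, which uses glutathione. All 6 had a positive log2 fold change, between 0.24 for *PRDX2* and 0.61 for *PRDX5*, and 2 were called. Over all 8324 genes tested, 4228 were positive, 9.85% were called and 5.09% were called higher. A family of 6 genes is too small to be read against those shares. *PRDX2* was at 0.02 after the GC content and length correction, which also lost the call of *PRDX5* (0.40). *PRDX3* was at -0.00063 without both deeper sgN6AMT1 libraries. *PRDX1*, the abundant cytosolic form and an NRF2 target, had 661, 599 and 824 normalized counts in sgCtrl and 943, 1037 and 1087 in sgN6AMT1. The means of 695 ± 116 and 1022 ± 73.0 (SD, n = 3 each) gave a log2 fold change of 0.56 (± 0.16 SE, edgeR adjusted p = 0.0306), and the groups did not overlap. Its adjusted p was 0.11 without sgCtrl replicate 1, 0.197 without sgCtrl replicate 2 and 0.0872 without sgN6AMT1 replicate 2.

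*PRDX5*, the form of mitochondria and peroxisomes, had 141, 130 and 114 normalized counts in sgCtrl and 230, 198 and 165 in sgN6AMT1, also without overlap. The log2 fold change was 0.61 (± 0.17 SE, edgeR adjusted p = 0.0286), with adjusted p-values of 0.0627 to 0.118 when any library but sgN6AMT1 replicate 3 was left out. *PRDX3*, which clears peroxide in the mitochondrial matrix, had 156, 138 and 187 in sgCtrl and 159, 222 and 250 in sgN6AMT1. Here sgN6AMT1 replicate 1 lay among the controls, and the log2 fold change of 0.41 had an edgeR adjusted p of 0.153, or 0.0486 (0.55) without that library.

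The cytosolic *PRDX6* had 481, 471 and 541 normalized counts in sgCtrl and 586, 568 and 718 in sgN6AMT1, above the controls in 3 of 3 libraries but not called (log2 fold change 0.33, edgeR adjusted p = 0.168). *PRDX2*, the main form of red cells, and *PRDX4*, that of the ER, overlapped between the conditions, with log2 fold changes of 0.24 and 0.42 (adjusted p = 0.398 and 0.138). Reads of this family carry a further uncertainty, since 5 of the 6 have named pseudogenes in the annotation and how multi-mapping reads were counted is not given in the sources used here.

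The thioredoxin system has a cytosolic arm (TXN and its reductase TXNRD1) and a mitochondrial one (TXN2 and TXNRD2), and both reductases are selenoproteins. *TXNRD2* had the highest log2 fold change of the 28 genes, 0.96 (± 0.25 SE, edgeR adjusted p = 0.0243). It had 60.5, 25.4 and 42.4 normalized counts in sgCtrl and 63.2, 83.6 and 94.6 in sgN6AMT1, so that the lowest depleted library was just above the highest control. Without sgCtrl replicate 2, 3 or sgN6AMT1 replicate 2 the adjusted p was 0.163, 0.0651 and 0.0564. Whether counting used the strand is not given in the sources used here.

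*TXNRD1*, also a target of NRF2, had 245, 226 and 244 normalized counts in sgCtrl and 273, 266 and 285 in sgN6AMT1. The 3 depleted libraries were each above the controls by a small margin, with a log2 fold change of 0.21 (95% interval from -0.09 to 0.50, edgeR adjusted p = 0.374). *TXN* behaved likewise, with 363, 303 and 388 against 398, 427 and 441 (log2 fold change 0.27, adjusted p = 0.25). *TXN2*, its mitochondrial counterpart, overlapped, with 63.2, 50.8 and 38.9 in sgCtrl and 48.5, 56.0 and 33.2 in sgN6AMT1 (log2 fold change -0.15, interval from -0.67 to 0.38). The mitochondrial glutaredoxin *GLRX2* overlapped as well, at 36.3, 46.1 and 64.8 against 63.2, 61.5 and 49.1 (log2 fold change 0.22, interval from -0.27 to 0.70).

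The superoxide dismutases leaned in opposite directions, and neither was called. *SOD2*, the manganese enzyme of the matrix, had 63.2, 68.1 and 90.8 normalized counts in sgCtrl and 99.1, 94.0 and 96.9 in sgN6AMT1, all above the controls (log2 fold change 0.38, edgeR adjusted p = 0.204). *SOD1*, the copper-zinc enzyme, had 619, 644 and 684 in sgCtrl and 549, 566 and 533 in sgN6AMT1, all below the controls (log2 fold change -0.24, adjusted p = 0.283). Both were called when the GC content and length correction was joined with a replicate block, *SOD2* at 0.53 (edgeR adjusted p = 0.03) and *SOD1* at -0.30 (adjusted p = 0.0416), in a fit that called 16.1% of all genes. For *SOD2* that correction used its canonical transcript of 14167 bases, which covers more than the enzyme's usual mRNA. The part of this length in the call was not tested. Within each library the counts on *SOD2* were 0.10, 0.11 and 0.13 times those on *SOD1* in sgCtrl and 0.18, 0.17 and 0.18 times in sgN6AMT1. That ratio differed by 0.64 on the log2 scale (exact permutation test, two-sided, p = 0.1, again the lowest possible, 0.25 after adjustment over the 5 ratios), without overlap. As the 5 ratios were chosen after the values were seen, their p-values support no conclusion. The same ratio of mitochondrial to cytosolic relative overlapped between the conditions for *PRDX3* over *PRDX1* (-0.19, p = 0.2), *TXN2* over *TXN* (-0.43, p = 0.3) and *TXNRD2* over *TXNRD1* (0.77, p = 0.2), by the same exact test.

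*CAT*, the peroxisomal catalase that breaks down hydrogen peroxide without a reductant, was the differentially expressed member that fell. It had 259, 193 and 237 normalized counts in sgCtrl and 143, 127 and 178 in sgN6AMT1. The highest depleted library was below the lowest control, and the means were 230 ± 33.9 and 149 ± 25.8 (SD, n = 3 per condition), with a log2 fold change of -0.62 (± 0.17 SE, edgeR adjusted p = 0.0279). The adjusted p was 0.121 and 0.0673 without sgCtrl replicate 1 or 3, and 0.138 without sgN6AMT1 replicate 2. The correction for GC content and length left it at -0.63 (adjusted p = 0.0181).

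**Figure D3:**
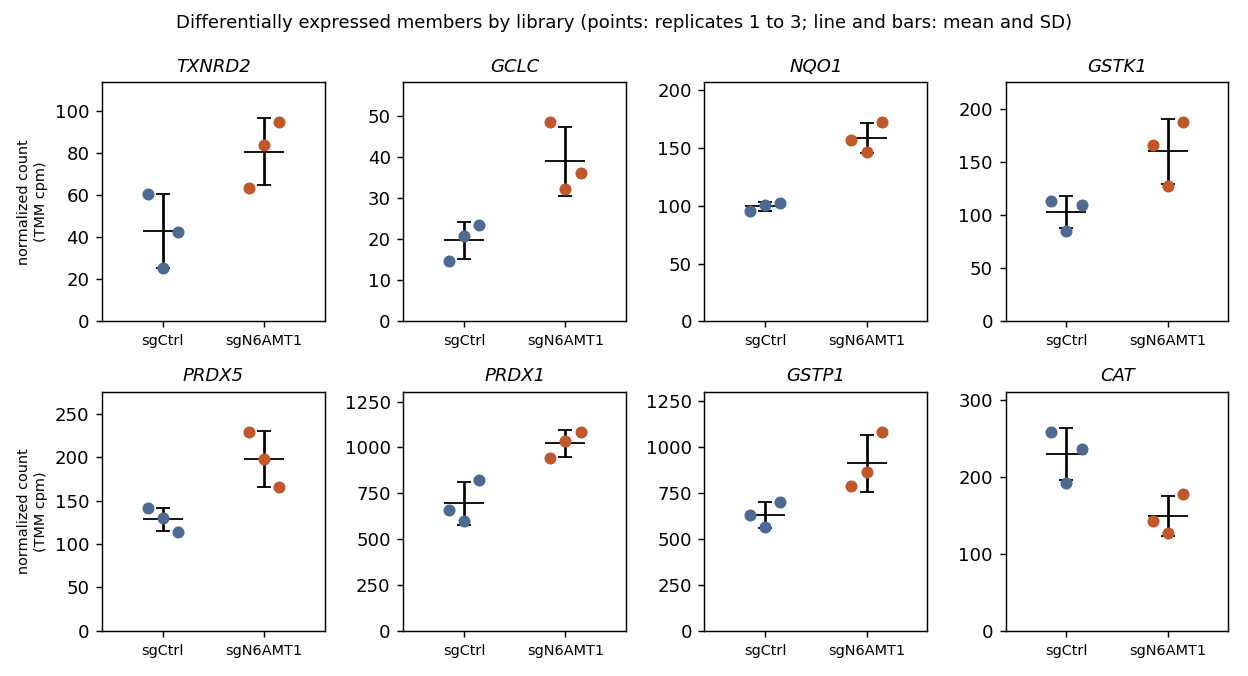
Normalized counts (y axis from 0) of the 8 differentially expressed members in replicates 1 to 3 of sgCtrl (blue) and sgN6AMT1 (orange), with mean and SD. The points of the conditions do not overlap in any of the 8 panels, and the gap is narrowest for *TXNRD2* (60.5 against 63.2).

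By compartment, 2 of the 6 mitochondrial enzymes tested rose (*TXNRD2* and *PRDX5*) and none fell, and the median log2 fold change of the 6 was 0.39. *PRDX5*, also a form of peroxisomes, was counted as mitochondrial, while *GSTK1*, likewise of both, was counted with the shared enzymes. Other assignments of *PRDX5* were not tested. Of the 11 cytosolic enzymes tested, 4 rose (*GCLC*, *NQO1*, *PRDX1* and *GSTP1*) and none fell, with a median of 0.33. For the 5 tested enzymes known in mitochondria and elsewhere the median was -0.08, with *GSTK1* called. Over all genes tested, 5.09% were called higher and 9.85% in either direction, and groups this small hold too few genes to be read against those shares. Taken per library against the sgCtrl mean, the mitochondrial median was 0.42, 0.42 and 0.38 in sgN6AMT1, while the controls ran from -0.07 to 0.15. The cytosolic median was 0.20, 0.29 and 0.52 in sgN6AMT1, with controls from -0.07 to 0.12. Both groups were thus above the controls in 3 of 3 depleted libraries, and sgN6AMT1 replicate 3 stood highest for the cytosolic one.

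The share of a library's counts that fell on the members was 0.594%, 0.566% and 0.626% of the counts on tested genes in sgCtrl and 0.669%, 0.693% and 0.764% in sgN6AMT1. The means were 0.595 ± 0.030% and 0.708 ± 0.050% (SD, n = 3 each), without overlap between the conditions (exact permutation test, two-sided, p = 0.1, again the lowest possible). The cytosolic enzymes held 0.320 ± 0.026% and 0.418 ± 0.036%, and the mitochondrial ones 0.0509 ± 0.0038% and 0.0685 ± 0.0030%. With mt-DNA-encoded genes left out of the total, the differences were smaller. The members then held 0.622 ± 0.028% and 0.716 ± 0.046%, the cytosolic enzymes 0.334% and 0.422%, and the mitochondrial ones 0.0532% and 0.0692%. The 95% Wilson interval of a member share was at most 0.0352 percentage points wide. *PRDX1* and *GSTP1* made up 20.8% to 24.2% of the members' counts in sgCtrl and 26.0% to 27.6% in sgN6AMT1, so that a large part of this share rests on these 2 genes.

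**Figure D4:**
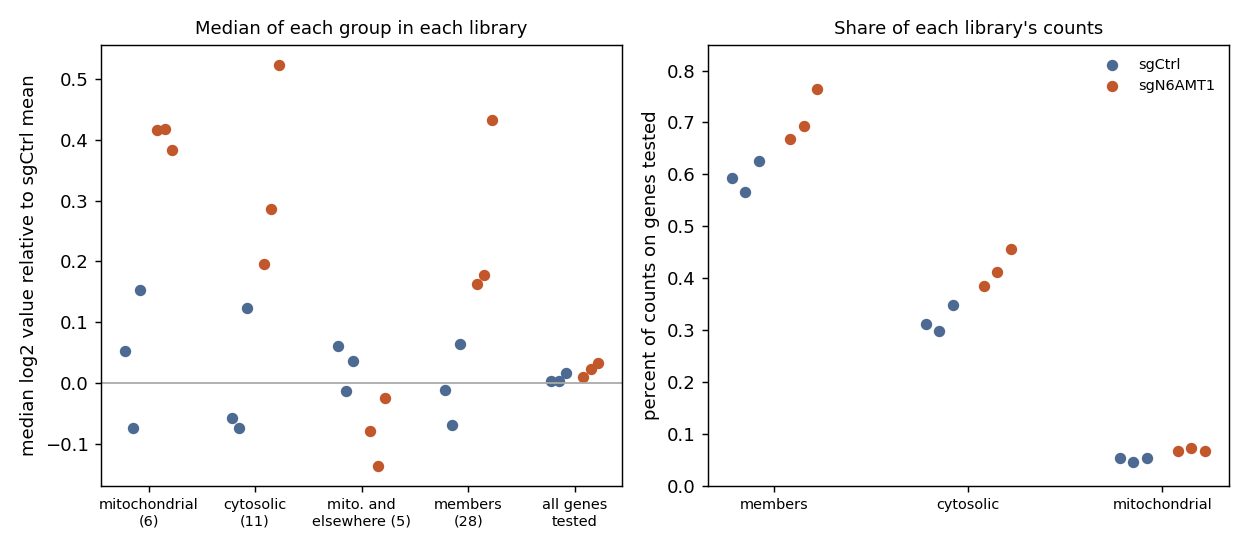
Left, the median log2 value of each group of genes per library, with the sgCtrl mean set to 0 (number of genes in brackets). Right, the share of counts on tested genes that fell on all members, the cytosolic and the mitochondrial enzymes. The orange sgN6AMT1 points lie above the blue sgCtrl points for the mitochondrial and cytosolic groups and below them for the enzymes known in mitochondria and elsewhere.

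The balance between mitochondrial and cytosolic enzymes differed by less than its spread between libraries. The counts on the 6 mitochondrial enzymes were 0.17, 0.16 and 0.15 times those on the 11 cytosolic enzymes in sgCtrl and 0.17, 0.17 and 0.15 times in sgN6AMT1. This ratio differed by 0.04 on the log2 scale (two-sided exact permutation test, p = 0.8). When the enzymes found in mitochondria and elsewhere, *SOD1* and *GPX4* among them, were counted as mitochondrial, the ratio was 0.56 to 0.63 in sgCtrl against 0.46 to 0.53 in sgN6AMT1, a log2 difference of -0.28 (exact permutation test, p = 0.1). Without these shared enzymes the log2 difference had no settled sign, being -0.0014 with sgN6AMT1 replicate 2 left out. The value thus depends on how the shared enzymes are assigned.

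Levels can be compared between genes once divided by transcript length. Per kb of canonical transcript, *GSTP1* stood highest in sgCtrl, at 853 ± 95.1 normalized counts per kb (SD, n = 3), followed by *PRDX1* at 735 ± 123 and *SOD1* at 725 ± 36.3, which do not differ beyond their spread. *TXN* at 477 and *GPX4* at 391 came next. The NRF2 targets *TXNRD1*, *NQO1*, *GCLM* and *GCLC* were at 61.7, 39.4, 13.3 and 5.21 per kb, and *NFE2L2* and *KEAP1* at 39.3 and 39.7. In sgN6AMT1, *GSTP1* and *PRDX1* were at 1231 and 1082 per kb and *SOD1* at 614. *SOD2* was left out, because its canonical transcript in GENCODE v44 runs to 14167 bases and covers more than the enzyme's usual mRNA.

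**Figure D5:**
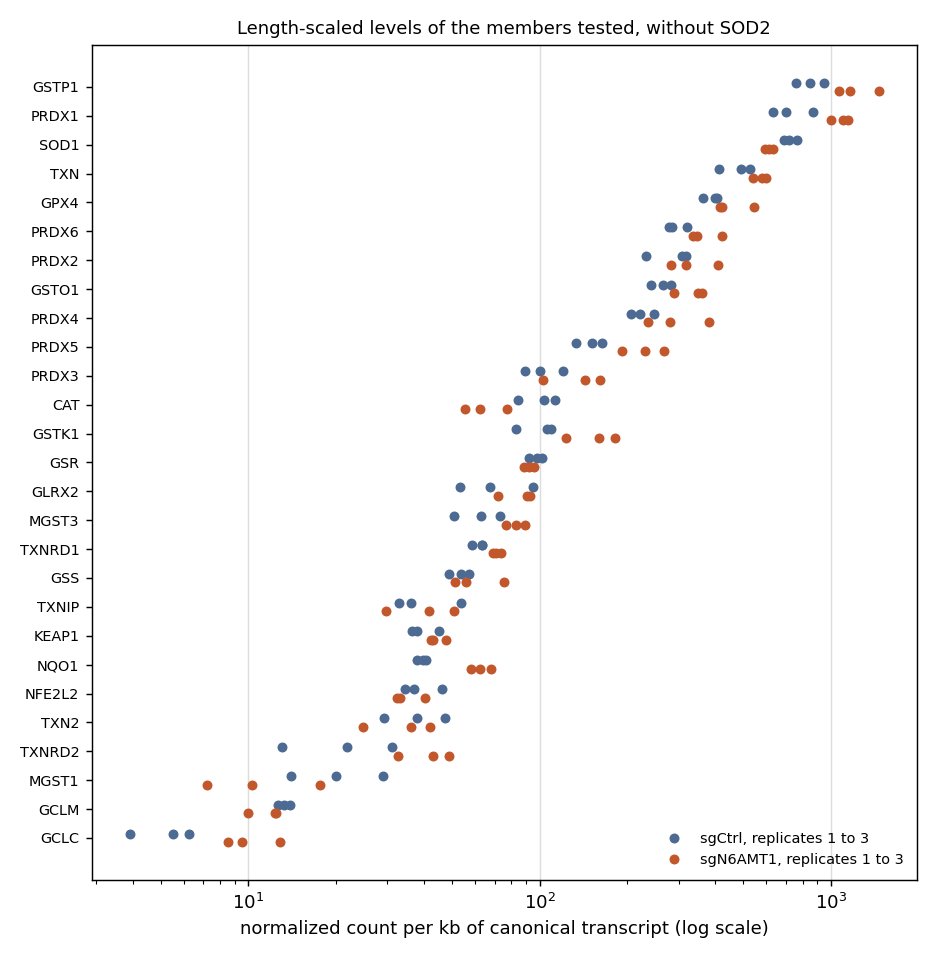
Normalized counts per kb of canonical transcript (log scale) of the tested members without *SOD2*, in each library. Members span more than 100-fold, from *GCLC* to *GSTP1*, and the sgN6AMT1 points of *GCLC*, *NQO1*, *PRDX1* and *GSTP1* lie to the right of their sgCtrl points.

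Promoters were searched for the core of the antioxidant response element, TGACNNNGC on either strand, in the RefSeq windows from 250 bases before to 50 bases after each annotated start (GRCh38.p14). Windows were found for 25 of the 32 members, and 6 of these (24%) held a match in at least 1 window, namely *GCLM*, *GSTO1*, *GSTP1*, *KEAP1*, *MGST1* and *TXNRD1*, where 16.1% of all genes in that table did. By window, 7 of 41 (17.1%) held a match, against 13.3% of all windows. Among the 7 called members with a window, *GSTP1* alone held one. A match describes letters only, and elements farther from the start are outside the window.

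The windows of *GSTP1*, which rose, and of *GCLM* and *TXNRD1*, classical NRF2 targets that were not called, are printed to show where the motif lies. Capitals mark the matches. That of *GSTP1* (chr11:67583562-67583861, plus strand) begins 66 bases before the start, that of *GCLM* (chr1:93909381-93909680, minus strand, reverse complement) 34 bases before it, and those of the upstream start of *TXNRD1* (chr12:104215529-104215828, plus strand) 99 and 8 bases before it, the latter as the reverse complement.
GSTP1: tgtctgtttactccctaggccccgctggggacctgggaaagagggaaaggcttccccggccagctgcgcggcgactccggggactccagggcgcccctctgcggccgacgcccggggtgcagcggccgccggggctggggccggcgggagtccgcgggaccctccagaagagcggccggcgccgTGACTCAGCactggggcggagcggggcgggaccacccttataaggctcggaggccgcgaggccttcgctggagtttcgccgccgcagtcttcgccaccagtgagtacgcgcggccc
GCLM: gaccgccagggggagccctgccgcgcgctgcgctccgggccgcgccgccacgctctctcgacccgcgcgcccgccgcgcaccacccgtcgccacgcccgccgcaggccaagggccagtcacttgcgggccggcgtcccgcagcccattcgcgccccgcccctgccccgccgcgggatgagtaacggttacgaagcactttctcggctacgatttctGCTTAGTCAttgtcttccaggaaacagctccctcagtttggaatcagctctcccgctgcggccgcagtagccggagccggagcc
TXNRD1: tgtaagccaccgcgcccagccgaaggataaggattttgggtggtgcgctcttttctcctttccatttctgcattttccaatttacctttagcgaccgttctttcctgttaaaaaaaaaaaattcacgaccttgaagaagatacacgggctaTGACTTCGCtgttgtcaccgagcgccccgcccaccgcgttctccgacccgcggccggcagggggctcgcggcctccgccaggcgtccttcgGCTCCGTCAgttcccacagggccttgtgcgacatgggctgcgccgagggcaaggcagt

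The genes around NRF2 that are not members were counted from lists. Of 14 further regulators of NRF2 or of its DNA element, 10 were tested, and *SQSTM1* and *RBX1* were called higher and *CREBBP* lower, with a median log2 fold change of -0.14 over the 10. These 3 of 10 compare with 9.85% of all genes called, 5.09% higher and 4.76% lower. *SQSTM1*, whose product p62 captures KEAP1 and whose gene is itself an NRF2 target, had 102, 106 and 104 normalized counts in sgCtrl and 189, 190 and 271 in sgN6AMT1, a log2 fold change of 1.07 (± 0.18 SE, edgeR adjusted p = 0.00126). *RBX1*, the RING subunit of the CUL3 ligase, had a log2 fold change of 0.81 (adjusted p = 0.0298), and *CREBBP*, an acetyltransferase and coactivator, of -1.03 (adjusted p = 0.00511). *BACH1*, the repressor that competes with NRF2, had 95.8 to 119 normalized counts in sgCtrl and 134 to 149 in sgN6AMT1, without overlap and without a call (log2 fold change 0.35, adjusted p = 0.173).

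Of 33 further NRF2 targets listed in the counts, 21 were tested and 2 were called, both higher, while the median log2 fold change was -0.02 and 11 of the 21 were negative. The share called, 9.52%, was near the 9.85% of all genes. *FTL*, the ferritin light chain, rose from 2159, 2042 and 2643 normalized counts in sgCtrl to 3927, 3634 and 4873 in sgN6AMT1 (log2 fold change 0.86, edgeR adjusted p = 0.00497), and *AKR1A1*, an aldehyde reductase, had a log2 fold change of 0.61 (adjusted p = 0.0493). The heavy chain *FTH1* overlapped between the conditions (-0.36, adjusted p = 0.262). *SLC7A11*, the cystine transporter that feeds glutathione synthesis, overlapped too (-0.33, adjusted p = 0.593), and so did the pentose phosphate enzyme *PGD* (-0.39, adjusted p = 0.171), which supplies NADPH. The aldo-keto reductases *AKR1C1*, *AKR1C2* and *AKR1C3*, near-identical genes whose reads may be shared, had log2 fold changes of -0.32, -0.44 and -0.50 and were not called. Others leaned up without overlap and without a call. These were *TALDO1* at 0.48 (edgeR adjusted p = 0.0554), *BLVRA* at 0.60 (0.101) and *TRIM16* at 1.10 (0.0988, from 7, 3 and 6 counts in sgCtrl). Of the 21, 5 lay higher and 1 lower without overlap, where 15.1% and 14.1% of all genes tested did so. Whether the median of the 21 differs from that of the members was not tested.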

How the data were processed

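RNA-Seq of K562 cells from 3 sgCtrl and 3 sgN6AMT1 transductions was analysed; condition and replicate number come from the labels. The authors trimmed reads with cutadapt, mapped them with HISAT2 to GRCh38 and deposited raw counts per gene, by overlap with an Ensembl annotation, without normalization. From these, filterByExpr (default settings) kept 8324 genes, which were scaled by TMM and tested without covariates by glmQLFTest after glmQLFit (older method) in edgeR 4.0.16 under R 4.3.3. P-values were adjusted by Benjamini-Hochberg across these genes. Standard errors are the log2 fold change over the root of F. Shares and ratios, 1 value per library, were compared with the exact permutation test (two-sided).

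The members, lists and tests were chosen with earlier results of these data known. Values in every library are given for members called, members without overlap between conditions, NRF2, KEAP1, 6 core NRF2 targets and the mitochondrial enzymes; of the wider lists, called genes are named, and the other genes named from them were chosen after their values were seen. Some genes outside the members are not reported here. The 5 within-library ratios were also chosen after the values were seen. Positions and canonical transcripts are from GENCODE v44 and promoters from RefSeq; GC content and length were known for 98.4% of the genes tested and for 28 of 28 tested members. The Wilson intervals of shares and the limit of 3 counts for a count of 0 cover counting error only. P-values measure the spread between transductions. Intervals of fold changes come from the standard errors of the edgeR fit and include that spread. Within a condition, every pair of libraries differed beyond counting noise (chi-square per degree of freedom 2.04 to 11.9). The fit was checked on counts drawn with known changes before use. Those draws had a common dispersion for all genes and no trend with GC content, so the check does not cover either feature of these libraries. Alternatives were DESeq2 1.42.0, RLE factors, library totals, no mt-DNA-encoded genes, no filter, at least 10 counts in every library, a replicate block, a GC content and length correction with and without that block, thinning of the deep libraries to 858710 counts, the newer quasi-likelihood method and each library left out; leaving out both deep libraries was added after seeing the data.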

Additional observations from a re-analysis of the deposited data

How the results depend on the processing

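The count of 8 called members was 6 to 9 in 9 of 11 fits that changed the tool, scaling, filter, depth or design, and 5 after correcting for GC content and length. Leaving out single libraries gave 1 to 6, and sgN6AMT1 replicate 1 alone against the 3 sgCtrl libraries gave 1 (*PRDX5*, with 1.38% of all genes called), with fewer samples in each. In the last, the spread comes from sgCtrl alone and the lone library is assumed to vary like it. The numbers of the replicates were not shown to pair the libraries. Correlations were -0.0005, 0.08 and 0.19 between same-numbered libraries and -0.19 to 0.14 between the others. With the replicate block 8 members were called (14.4% of all genes), and 11 with the block plus the GC content and length correction, which added *SOD2*, *SOD1* and *PRDX3* (edgeR adjusted p = 0.0413). For *SOD2* the correction used its canonical transcript of 14167 bases. The median of the mitochondrial enzymes was 0.31 after thinning and 0.30 to 0.53 with single libraries left out. The ratio of mitochondrial to cytosolic counts ran from -0.0014 to 0.13 (log2) with libraries left out and was -0.28 with the shared enzymes added. Signs turned, with no call, for *TXN2* without sgCtrl replicate 1 (0.0241) or sgN6AMT1 replicate 3 (0.0737, range -0.36 to 0.0737 with libraries left out), for *GCLM* with the GC content and length correction (0.0294, and 0.0085 with the block), and without both deep libraries for *NFE2L2* (0.0515) and *PRDX3* (-0.00063), and for *TXNIP* in DESeq2 (-0.014) and with the replicate block (-0.0062). The causes were not tested. *GLRX* was called only without the filter on low counts (edgeR adjusted p = 0.0464). *SRXN1*, *GLRX*, *GPX1* and *HMOX1* had too few counts to be tested, and *GCLC* and *MGST1* had 11 to 20 counts in sgCtrl.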

Other observations

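Selenoproteins insert selenocysteine at a stop codon, and 4 members (*TXNRD1*, *TXNRD2*, *GPX1* and *GPX4*) belong to them. Of 19 further genes for selenoproteins or their synthesis found in the counts, 13 were tested, with a median log2 fold change of 0.03, and *SEPW1* (selenoprotein W) was the one called (7.69%, against 9.85% of all genes). It had 10.8, 12.7 and 10.6 normalized counts in sgCtrl and 22.1, 27.6 and 32.6 in sgN6AMT1, a log2 fold change of 1.31 (± 0.32 SE, edgeR adjusted p = 0.0162). *SECISBP2* and *SEPSECS*, which serve selenocysteine insertion, had log2 fold changes of -0.06 and 0.03 with overlap between the conditions. *SEPHS1* had -0.47 without overlap and without a call (adjusted p = 0.16).

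Of 37 other antioxidant genes found in the counts, 24 were tested, with a median log2 fold change of 0.11, and *SLC3A2* was the one called (4.17%, against 9.85% of all genes). *SLC3A2*, the heavy chain that amino acid exchangers including the cystine transporter need at the membrane, had 160, 136 and 183 normalized counts in sgCtrl and 248, 314 and 437 in sgN6AMT1 (log2 fold change 1.07 ± 0.19 SE, edgeR adjusted p = 0.00238). Its partner *SLC7A11* was not called. *NNT* and *IDH2*, which supply NADPH inside mitochondria, had log2 fold changes of 0.03 and 0.10 and overlapped between the conditions.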
